A study of Mus musculus with 90 samples.

Results

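The genes described here are 29 mouse genes of cholesterol synthesis, of its control by SREBP2 and of sterol transport, taken from a fixed list of gene symbols that was mapped to the Entrez identifiers of the deposited count tables. All 29 were found, among 24475 genes in each table, and all 29 passed the filter on low counts in both experiments. They fall by role into 19 synthesis enzymes, 4 genes of SREBP2 control (Srebf2, Scap, Insig1 and Insig2) and 6 sterol carriers or transport genes (Stard4, Tmem97, Mylip, Abca1, Abcg5 and Abcg8).

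Cholesterol is built from acetyl-CoA through mevalonate, isoprenoid diphosphates, squalene and lanosterol, and the liver is a main site of this synthesis. When membrane sterol is low, the escort protein SCAP carries SREBP2 (the product of Srebf2) from the endoplasmic reticulum to the Golgi, where it is cut, and the released fragment switches on genes of synthesis and uptake. When sterol is high, the INSIG proteins hold SCAP back, while the oxysterol receptor LXR switches on export genes such as Abca1 and the Abcg5-Abcg8 pair.

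The study measured polyadenylated RNA in mouse liver by RNA-seq, in 90 libraries that form 9 groups of 10, and asked about signalling below the glucagon receptor (GCGR), which acts through a stimulatory G protein, cyclic AMP, protein kinase A (PKA) and the cyclic AMP sensor EPAC2. Experiment 1 held mice given an AAV8 vector, a virus used to reach the liver, with a short hairpin RNA: a Control group, and groups labelled Gcgr KD, Gnas KD (the gene of the stimulatory G protein), PKA KD (the label names no subunit) and Epac2 KD. Experiment 2 crossed a Control AAV or a knockdown of Prkar1a, a regulatory subunit that restrains PKA, with a Control mAb or a Gcgr mAb (an antibody to the receptor), which gave Control AAV + Control mAb, Control AAV + Gcgr mAb, Prkar1a KD + Control mAb and Prkar1a KD + Gcgr mAb. The labels used here give no strain, sex, age, dose, promoter or time after injection, and they do not say which cells the hairpin reached.

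Libraries held 20813066 to 33709500 counts in experiment 1 (median 25321521 counts) and 8870340 to 19481413 counts in experiment 2 (median 16500619 counts). Levels are given as CPM, the count relative to the library total after TMM scaling, and every group range has n = 10. The targeted genes were low where the labels say so: the median of Gcgr was 44.9 CPM with Gcgr KD against 172 CPM in Control, that of Gnas was 44.7 against 359 CPM with Gnas KD, and that of Rapgef4, the gene of EPAC2, was 8.82 against 89.0 CPM with Epac2 KD. With PKA KD the catalytic subunit genes Prkaca (9.44 against 95.7 CPM) and Prkacb (8.94 against 40.4 CPM) were both low, and Prkar1a was at 32.8 against 122 CPM with Prkar1a KD. The antibody acts on the receptor protein, and Gcgr RNA differed from its control by a log2 fold change of -0.02. Library 2 of Control AAV + Gcgr mAb stood apart: its median correlation with its own group was 0.937, against a group median of 0.980, and it had the lowest level of many enzyme genes, so values that rest on this group are also given without it. The labels do not say that the samples of a group were separate mice, and the p-values speak of the spread among samples, which may be technical.

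Sequences just upstream of genes on which the results turn are shown from the RefSeq promoter table of build GRCm38.p6, 5′ to 3′ on the strand of the gene (for the stretch between Abcg5 and Abcg8, on the plus strand). Capitals mark NF-Y boxes (CCAAT on either strand) and the sterol regulatory element TCACNCCAC on either strand with up to 1 mismatch outside the N. The stretches are Hmgcs1 (chr13:119690101-119690350, plus strand), Mvd (chr8:122443435-122443492, minus strand), Nsdhl (chrX:72918306-72918515, plus strand), Msmo1 (chr8:64733619-64733765, minus strand), Srebf2 (chr15:82147097-82147148, plus strand) and the 109 bases between Abcg5 and Abcg8 (chr17:84683012-84683120).
Hmgcs1: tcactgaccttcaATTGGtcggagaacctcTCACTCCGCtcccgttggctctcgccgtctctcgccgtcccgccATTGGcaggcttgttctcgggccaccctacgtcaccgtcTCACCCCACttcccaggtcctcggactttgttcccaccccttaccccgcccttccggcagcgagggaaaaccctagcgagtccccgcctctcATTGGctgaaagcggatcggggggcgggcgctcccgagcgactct
Mvd: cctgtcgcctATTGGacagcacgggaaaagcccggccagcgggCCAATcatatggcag
Nsdhl: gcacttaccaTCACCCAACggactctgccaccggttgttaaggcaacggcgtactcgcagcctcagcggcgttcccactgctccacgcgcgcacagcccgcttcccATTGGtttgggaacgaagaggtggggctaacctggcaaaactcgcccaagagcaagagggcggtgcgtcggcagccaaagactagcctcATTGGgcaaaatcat
Msmo1: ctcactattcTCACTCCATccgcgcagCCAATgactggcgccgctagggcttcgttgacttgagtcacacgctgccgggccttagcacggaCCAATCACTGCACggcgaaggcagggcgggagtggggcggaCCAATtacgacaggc
Srebf2: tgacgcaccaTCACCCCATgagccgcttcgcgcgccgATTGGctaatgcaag
Between Abcg5 and Abcg8: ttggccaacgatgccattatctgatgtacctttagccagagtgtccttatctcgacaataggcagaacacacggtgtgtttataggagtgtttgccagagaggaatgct
The Hmgcs1 stretch held 3 NF-Y boxes and 2 elements, 1 of them a full TCACNCCAC whose first base lay 137 bases before the start; this RefSeq start is not inside a GENCODE transcript of the gene. In Msmo1 an element and an NF-Y box overlap in 1 run of capitals. The stretch between Abcg5 and Abcg8 held neither motif.

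The 250 bases before the start were searched for each of the 25 genes of the set that have an entry in the promoter table; the other 4 are Fdps, Fdft1, Sqle and Stard4. TCACNCCAC without a mismatch was found in Hmgcs1 alone, which is 4% of the 25 genes, against 1.22% of 27025 genes in the table. With 1 mismatch allowed it was found in 11 of 25 (44%, against 23%): Acat2, Cyp51, Dhcr7, Hmgcs1, Hsd17b7, Insig1, Insig2, Msmo1, Mylip, Nsdhl and Srebf2. The NF-Y box CCAAT was present in 21 of 25 (84%, against 37.5%), and Mvk held the most, 5. None was found in Abca1, Abcg5, Acat2 and Scap. The Sp1 box GGGCGG was also present in 21 of 25 (84%, against 35.4%). The full cyclic AMP response element TGACGTCA was in 0 of 25 (against 1.77%) and its shorter form TGACG, which the full element contains, was in 9 (36%, against 19.8%). The LXR DR4 element was in 0 of 25, against 0.0148% of all genes. These are matches of letters on both strands in 1 window, not measured binding.

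In control liver the levels, set per kilobase of the longest coding transcript so that genes can be compared, differed widely between genes. In Control of experiment 1 the median level was highest for Fdps (farnesyl diphosphate synthase) at 243 CPM per kb, then Hmgcs1 (HMG-CoA synthase, which makes the precursor of mevalonate) at 182, Insig1 at 150, Ebp at 120 and Sc5d at 116 CPM per kb. The lowest were Ggps1, which makes the geranylgeranyl diphosphate that leads away from sterols, at 0.95 CPM per kb, Mylip at 4.19, Stard4 at 9.96, Mvk at 13.1 and Srebf2 at 13.6 CPM per kb. In Control AAV + Control mAb of experiment 2, Hmgcs1 (172 CPM per kb), Insig1 (166), Fdps (145) and Sc5d (132) had the highest medians.

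**Figure D1:**
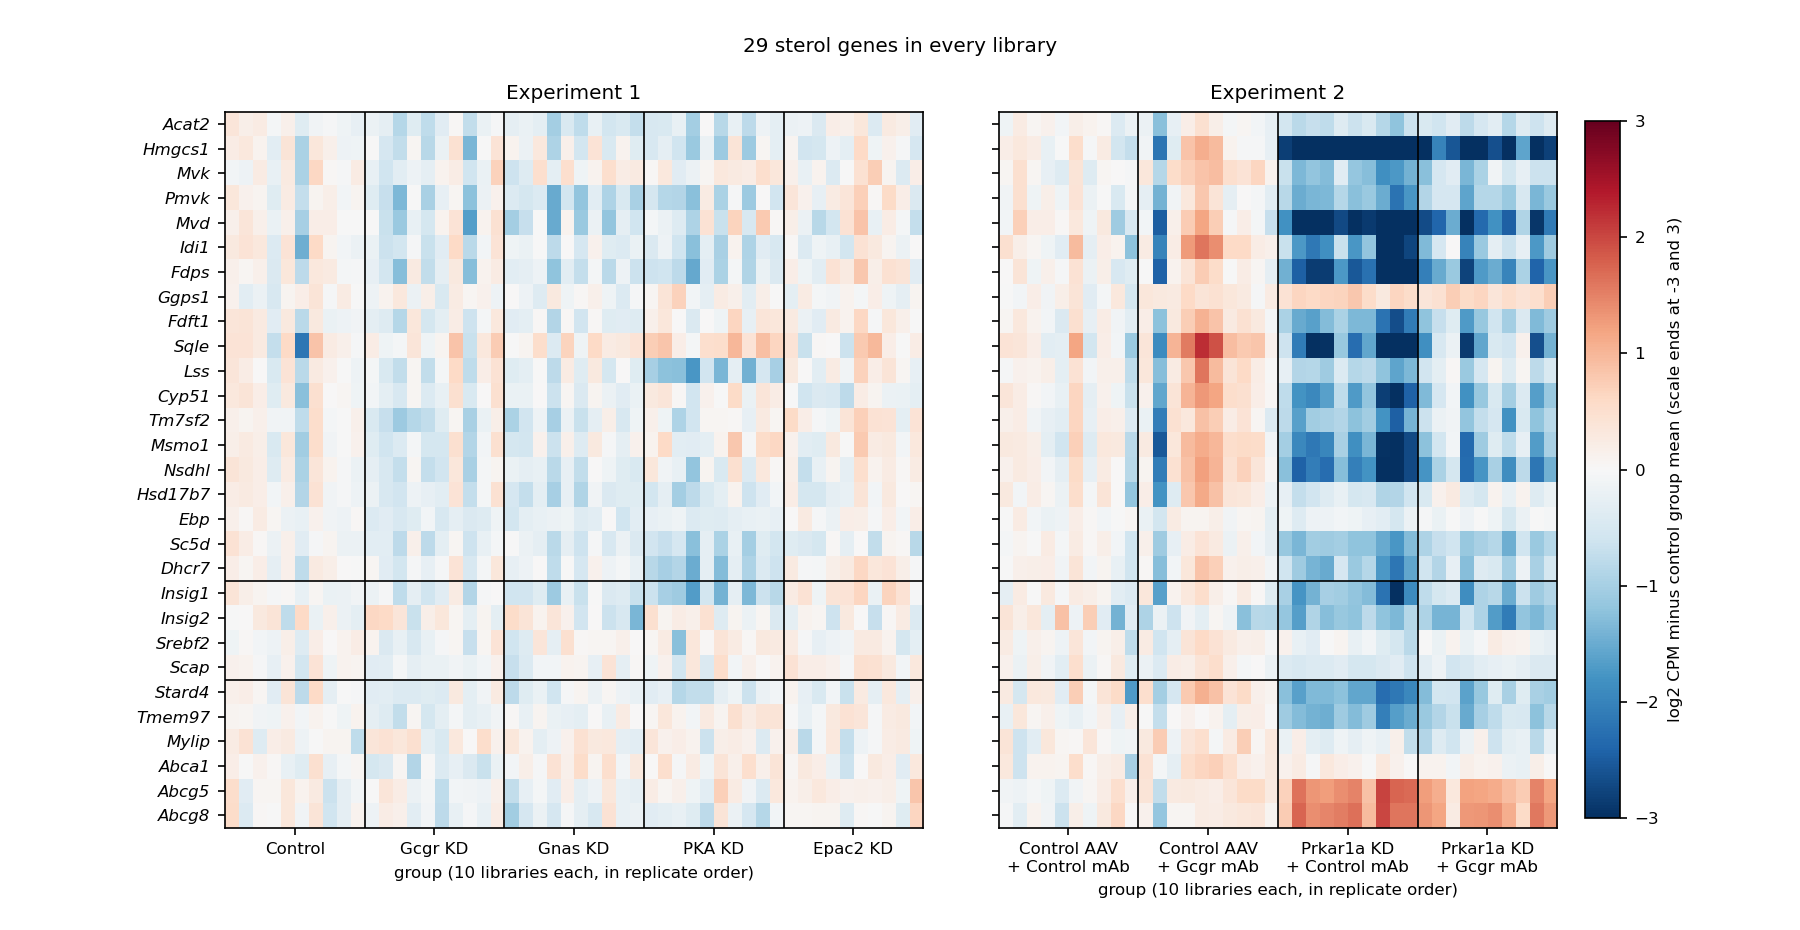
Each column is 1 library of experiment 1 or experiment 2 and each row 1 of the 29 genes; colour gives log2 CPM minus the mean of the control group of that experiment, and the scale ends at -3 and 3. The 20 libraries with Prkar1a KD are low for most enzyme genes and high for Abcg5 and Abcg8, and library 2 of Control AAV + Gcgr mAb and library 6 of Control stand out as low within their groups.

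Knockdown of Prkar1a with the control antibody was the comparison in which this gene set moved most. Against Control AAV + Control mAb, 18 of 19 synthesis enzymes fell and 1, Ggps1, rose. Of the SREBP2 control genes, 3 of 4 fell, and of the 6 transport genes 2 fell and 2 rose, the latter being Abcg5 and Abcg8. That makes 23 genes lower and 3 higher of 29 by edgeR's quasi-likelihood test at an adjusted p under 0.05, in a comparison in which 56.2% of all 12847 genes tested were called, 26.9% lower and 29.3% higher. The median log2 fold change of the 29 genes was -1.27, against 0.02 over all genes tested. Overlap of groups, given below for single genes, was determined for the 29 genes only. The share of all genes without overlap is therefore not known for any comparison. Without library 10 of the control group, a choice made after seeing the data, 24 fell and 3 rose.

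Among enzymes of the mevalonate part, Hmgcs1 ranged from 337 to 799 CPM in the controls (median 597) and from 23.0 to 78.4 CPM with Prkar1a KD (median 41.7). The groups did not overlap, and the level was 12.7-fold lower (log2 fold change -3.66 ± 0.31 SE, adjusted p = 1.23e-12, edgeR). Mvd, which turns mevalonate diphosphate into isopentenyl diphosphate, ranged from 9.39 to 32.3 CPM (median 21.5) in controls and from 1.5 to 5.65 CPM (median 1.99) with the knockdown. Again no library overlapped, and the log2 fold change was -3.09 ± 0.33 (adjusted p = 3.39e-10, edgeR). The kinases upstream of Mvd fell less, with log2 fold changes of -1.18 for Mvk and -1.35 for Pmvk. Acat2, the thiolase that starts the pathway, fell by 0.69 on the log2 scale, from a median of 125 to 76.1 CPM.

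Among isoprenoid enzymes, Fdps fell from a median of 201 CPM (145 to 272) to 31.3 CPM (14.5 to 73.9), with no overlap. Its log2 fold change was -2.52 ± 0.28 (adjusted p = 1.07e-09, edgeR), and the isomerase gene Idi1 fell by 1.74. Ggps1 went the other way, from a median of 5.86 CPM (4.14 to 7.88) to 9.23 CPM (7.39 to 10.5). Of the 10 knockdown libraries 9 lay above the highest control, and the log2 fold change was 0.56 ± 0.09 (adjusted p = 7.7e-07, edgeR).

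Among enzymes from squalene to cholesterol, Sqle (squalene epoxidase, a step that limits the flux) ranged from 15.9 to 77.8 CPM in controls (median 36.1) and from 1.76 to 22.5 CPM with Prkar1a KD (median 5.74). The groups overlapped, with 9 of 10 knockdown libraries below the lowest control, and the log2 fold change was -2.20 ± 0.44 (adjusted p = 5.29e-05, edgeR). Nsdhl and Msmo1, which take methyl groups off the sterol ring, fell by 2.12 and 1.90 on the log2 scale, both without overlap. The lanosterol demethylase gene Cyp51 (-1.67), the squalene synthase gene Fdft1 (-1.53), the sterol reductase gene Tm7sf2 (-1.28) and the desaturase gene Sc5d (-1.27) also fell without overlap. Dhcr7, which makes cholesterol in the last step of one branch, fell by 1.19, and Lss, which closes the ring to lanosterol, fell by 0.90 from a median of 44.2 to 22.3 CPM. The smallest falls were those of Hsd17b7 (-0.60, adjusted p = 0.0128) and the isomerase gene Ebp (-0.23, adjusted p = 0.0118), both by edgeR.

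In SREBP2 control, Srebf2 itself ranged from 20.1 to 43.7 CPM in controls (median 36.4) and from 19.6 to 37.4 CPM with Prkar1a KD (median 29.3). The groups overlapped, and the change did not pass the test (log2 fold change -0.24, 95% interval -0.49 to 0.01, adjusted p = 0.092, edgeR). Without library 10 of the controls it was -0.30 with an adjusted p of 0.0212 by the same test. Scap fell from a median of 66.9 CPM (53.1 to 96.8) to 50.8 CPM (44.4 to 53.8), by 0.47 ± 0.09 on the log2 scale. Insig1, itself a target of SREBP2, fell from a median of 447 CPM (331 to 536) to 171 CPM (54.0 to 224). No library overlapped, and its log2 fold change was -1.48 ± 0.21 (adjusted p = 1.39e-07, edgeR). Insig2 ranged from 121 to 600 CPM in controls (median 331) and from 104 to 187 CPM (median 143) with Prkar1a KD, and its log2 fold change was -1.26 ± 0.20 (adjusted p = 1.2e-06, edgeR). Only 1 of 10 knockdown libraries lay below the lowest control, so the groups overlapped. That overlap came through library 9 of the controls, at 121 CPM, since the other controls lay from 258 to 600 CPM.

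In transport, Abcg5 rose from a median of 68.3 CPM (54.5 to 102) to 196 CPM (116 to 293), and Abcg8 from 77.1 CPM (50.2 to 121) to 232 CPM (131 to 312). These genes encode the partner subunits of the pump that moves sterols from hepatocytes into bile, and for both every knockdown library was above every control. Their log2 fold changes were 1.44 ± 0.14 (adjusted p = 4.51e-11) and 1.47 ± 0.16 (adjusted p = 6e-10), by edgeR. The loci overlap in the annotation and use of strand in the counting is not given in the sources used here, so reads in the shared stretch may be split between them. Abca1, which loads cholesterol onto apolipoprotein A-I, was at a median of 176 CPM (81.6 to 234) in controls and 178 CPM (160 to 202) with Prkar1a KD, a log2 fold change of 0.09 with a 95% interval of -0.16 to 0.33 (adjusted p = 0.55, edgeR). Mylip, an LXR target that encodes a ubiquitin ligase for lipoprotein receptors, was not called (-0.20, interval -0.47 to 0.06, adjusted p = 0.183, edgeR).

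Tmem97, which encodes the sigma-2 receptor and binds the cholesterol exporter NPC1, fell from a median of 78.5 CPM (67.5 to 100) to 31.0 CPM (19.2 to 38.2) with Prkar1a KD. The groups did not overlap (log2 fold change -1.37 ± 0.12, adjusted p = 1.78e-12, edgeR). Stard4, a carrier of cholesterol between membranes in the cytosol, fell from a median of 60.6 CPM (15.5 to 83.6) to 16.9 CPM (10.3 to 21.1), by 1.71 ± 0.23 on the log2 scale. Here the groups overlapped, since library 10 of the controls, at 15.5 CPM, lay within the knockdown range.

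**Figure D2:**
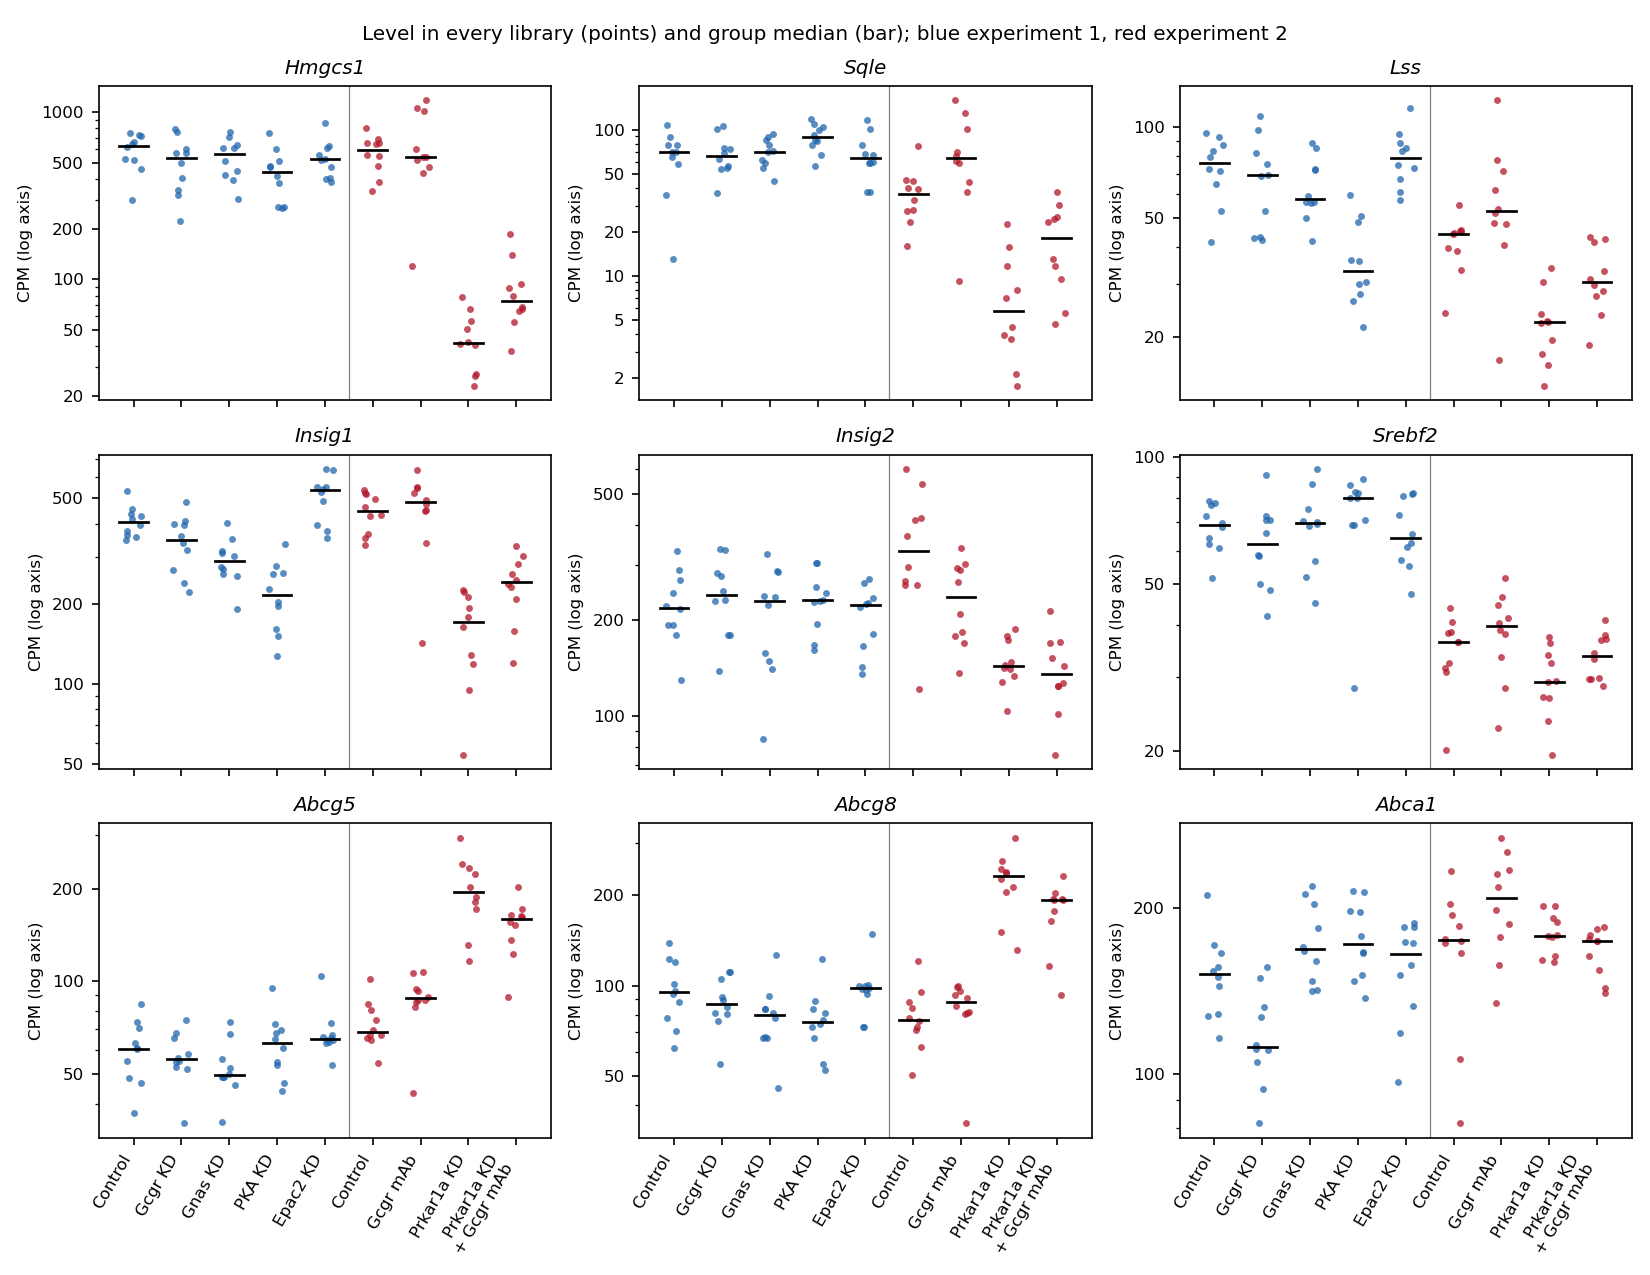
CPM of 9 genes on log axes, with 1 point per library and a bar at the median, in the 9 groups (blue, experiment 1; red, experiment 2). Hmgcs1 fell from a median of 597 CPM to 41.7 CPM with Prkar1a KD while Abcg5 rose from 68.3 to 196 CPM, and Lss and Insig1 are the genes that fell furthest with PKA KD.

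Other marker and pathway genes moved in the same libraries, where 56.2% of all genes tested were called. The summed level of 7 hepatocyte markers was 76108 to 90291 CPM (median 83284) in Control AAV + Control mAb and 29677 to 43421 CPM (median 34837) with Prkar1a KD, and 5 of 7 fell, among them Apoa1 (-1.87), Ttr (-1.76) and Apoa2 (-1.55), while Hnf4a rose (0.77). None of 6 Kupffer cell markers was called, 2 of 6 endothelial markers (Lyve1 and Stab2) and 3 of 7 stellate cell markers fell, and no hepatocyte marker was at 0. The part of these changes in the results was not tested, and in bulk tissue fewer cells of a type and less RNA per cell cannot be told apart.

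Genes next to the set in sterol biology moved in both directions with Prkar1a KD. Their counts are to be read beside the share over all genes tested. Of those 56.2% were called in this comparison, 29.3% higher and 26.9% lower. Of 14 genes of SREBP processing and sterol sensing 5 rose and 3 fell: the protease genes Mbtps2 (log2 fold change 0.48) and Mbtps1 (-0.14), which cut SREBP2 in the Golgi, went opposite ways. Of 15 tested genes of sterol uptake, esterification and trafficking 3 rose and 6 fell, among them Npc1, which exports cholesterol from lysosomes (-0.96), and Scarb1, the HDL receptor gene (0.21). Of 10 genes of bile acid synthesis 3 rose and 4 fell, with Cyp7b1 at 1.29 and Cyp27a1 at -0.95. Of 10 genes of the isoprenoid branch 1 rose (Rabggtb, 0.34) and 3 fell (Coq2 at -0.63, Dhdds at -0.36 and Dolk at -0.35). Of 16 genes of SREBP1 and fatty acid synthesis 14 fell and 0 rose (median log2 fold change -1.62), led by Thrsp (-5.48), Scd1 (-3.67) and Acacb (-3.30).

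With the Gcgr mAb present in both arms, Prkar1a KD was again followed by lower enzyme genes. Against Control AAV + Gcgr mAb, 23 of the 29 genes fell and 3 rose (edgeR), where 53.1% of all genes were called, 26.5% higher and 26.6% lower, and the median log2 fold change was -0.89 against -0.01 over all genes. Of 19 enzymes 16 fell. Without library 2 of Control AAV + Gcgr mAb 25 fell and 2 rose, with a median of -1.01; Hsd17b7 (-0.59, adjusted p = 0.00268) and Srebf2 (-0.27, adjusted p = 0.0435) were then called and Ggps1 (0.20, adjusted p = 0.0578) was not, all by edgeR.

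In this comparison Hmgcs1 ranged from 121 to 1178 CPM (median 541) with the antibody alone and from 37.3 to 187 CPM (median 74.1) with both. The groups overlapped through library 2, and the log2 fold change was -2.88 ± 0.30 (adjusted p = 2.43e-10, edgeR), or -3.01 without that library. Mvd (-2.30), Sqle (-2.0), Nsdhl (-1.85) and Fdps (-1.79) followed in size, and without library 2 they were at -2.44, -2.14, -1.99 and -1.92. Abcg5 rose from a median of 88.0 CPM (43.4 to 108) to 159 CPM (89.0 to 202), and Abcg8 from 88.4 CPM (34.7 to 99.9) to 193 CPM (92.9 to 232); 9 of 10 libraries with both treatments exceeded the highest antibody library for each. Library 2 held the lowest antibody value of both, and without it the ranges began at 82.8 and 80.6 CPM and the log2 fold changes were 0.71 and 0.96. Insig1 fell by 0.95, Insig2 by 0.75 and Scap by 0.43 on the log2 scale, and the log2 fold changes without library 2 were -1.07, -0.72 and -0.49. Mylip fell from a median of 10.2 CPM (7.45 to 14.1) to 6.55 CPM (4.51 to 9.14), by 0.71 ± 0.13, and Abca1 fell by 0.30 (adjusted p = 0.0348, edgeR). Without library 2 the log2 fold changes were -0.67 for Mylip and -0.35 for Abca1 (adjusted p = 0.0151, edgeR). Srebf2 was not called with all libraries (-0.19, interval -0.44 to 0.05, adjusted p = 0.183, edgeR).

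Cell type markers moved in these libraries too, where 53.1% of all genes tested were called. The summed hepatocyte markers were at 65244 to 87387 CPM (median 74436) with the antibody alone and 25525 to 54701 CPM (median 38952) with both, and 5 of 7 fell while Hnf4a rose. The summed endothelial markers were at 103 to 181 CPM (median 144) against 59.0 to 120 CPM (median 82.6), and 5 of 6 fell. Of the Kupffer cell markers 4 of 6 fell, and of the stellate cell markers 5 of 7. Without library 2 the counts of markers that fell were 5 hepatocyte, 5 endothelial, 2 Kupffer cell and 4 stellate cell, and no marker of these lists was at 0 in either group. Their part in the results was not tested.

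Set against Control AAV + Control mAb, the group with both treatments had 21 of the 29 genes lower and 3 higher (edgeR; of all genes 50.2% were called, 26% higher and 24.2% lower), with a median log2 fold change of -0.85. The leading genes were Hmgcs1 (-2.70), Mvd (-2.15), Fdps (-1.71), Nsdhl (-1.39) and Insig2 (-1.33) among those that fell, and Abcg8 (1.14), Abcg5 (1.06) and Ggps1 (0.51) among those that rose. Lss, Hsd17b7, Ebp, Srebf2 and Abca1 were not called. This comparison and the one with Prkar1a KD alone share their control libraries. Beside these values, 5 of 7 hepatocyte markers fell and Hnf4a rose, and 3 of 6 endothelial and 3 of 7 stellate cell markers fell.

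Between the Prkar1a KD groups, the Gcgr mAb was not followed by a called change in any of the 29 genes, nor in any gene of the 12847 tested (0% called, edgeR; DESeq2 also called 0). At an unadjusted p under 0.05 there were 20 of 29 genes of the set and 846 of all genes. The log2 fold change was positive for 23 of 29, including 18 of 19 enzymes, against 48.9% of all genes tested. These signs are not separate observations, since they come from the same libraries and most enzyme genes varied together in control liver. The median log2 fold change was 0.52 against 0.00 over all genes. The largest were Sqle at 1.18 (95% interval 0.30 to 2.06, adjusted p = 0.641), Msmo1 at 1.03 (0.41 to 1.65, adjusted p = 0.447) and Hmgcs1 at 0.96 (0.39 to 1.54, adjusted p = 0.447), all by edgeR. For Hmgcs1 the medians were 74.1 CPM with both and 41.7 CPM with Prkar1a KD alone, and 5 of 10 libraries with both lay above the highest of the other group. Stard4 was at a median of 25.4 against 16.9 CPM, with 8 of 10 libraries above (0.74, interval 0.27 to 1.21, adjusted p = 0.48, edgeR). Abcg5 (-0.38, interval -0.67 to -0.09) and Abcg8 (-0.33, interval -0.66 to -0.01) had negative values.

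Given alone, the Gcgr mAb was followed by 1 called change among the 29 genes (edgeR; of all genes 8.19% were called, 2.92% higher and 5.27% lower). Ggps1 rose from a median of 5.86 CPM (4.14 to 7.88) to 7.46 CPM (5.81 to 9.08), a log2 fold change of 0.30 ± 0.09 with an adjusted p of 0.0264 by edgeR. The groups overlapped, and 2 of 10 antibody libraries exceeded the highest control. This call was lost without library 10 of the controls (0.25, adjusted p = 0.056) and with only the groups compared in the fit (0.30, adjusted p = 0.0982). At an unadjusted p under 0.05 there were 7 genes by edgeR, and DESeq2 called 2.

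Sqle ranged from 9.25 to 159 CPM in the antibody group (median 63.5), against a control median of 36.1 CPM. Its log2 fold change of 0.98 (interval 0.15 to 1.80) did not pass (adjusted p = 0.133, edgeR), nor did it without library 2, the lowest of the group (1.11, adjusted p = 0.061, edgeR). Insig2 was at a median of 237 CPM (136 to 339) against 331 CPM (-0.58, interval -0.98 to -0.19, adjusted p = 0.0571, edgeR), and was called by DESeq2 (adjusted p = 0.033) and without library 10 of the controls (-0.63, adjusted p = 0.046, edgeR). Without library 2 of the antibody group, Lss (0.63, adjusted p = 0.0205) and Mvk (0.55, adjusted p = 0.0172) were called as well by edgeR, 3 genes in all, while Ggps1 stayed at 0.30 (adjusted p = 0.0288) and Insig2 was at -0.62 (adjusted p = 0.0513). Hmgcs1 (0.18, interval -0.39 to 0.74), Srebf2 (0.15), Scap (0.07), Insig1 (0.05), Abcg5 (0.26), Abcg8 (0.08), Mylip (0.31) and Abca1 (0.28) were not called. Without library 2 these 8 genes were not called either, at 0.30, 0.21, 0.11, 0.16, 0.34, 0.17, 0.26 and 0.32 in the same order. Outside the set, Cyp7a1, the rate-limiting enzyme of bile acid synthesis, rose from a median of 84.6 CPM to 234 CPM (log2 fold change 1.21, adjusted p = 0.00164, edgeR), and Scarb1 rose by 0.38; without library 2 the log2 fold changes were 1.32 and 0.36. Of the cell type markers Adgre1 of Kupffer cells and Stab2 of endothelial cells rose, and without library 2 Adgre1 was not called.

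The interaction term asks whether the effect of Prkar1a KD differed with and without the antibody, and it was called for 0 of 29 genes by edgeR (6 at an unadjusted p under 0.05; of all genes 4.08% were called, 2.74% positive and 1.34% negative), while DESeq2 called 2. The nearest was Abcg5, whose rise was smaller with the antibody by 0.64 ± 0.20 on the log2 scale (adjusted p = 0.0567, edgeR). Without library 2 of Control AAV + Gcgr mAb that term was -0.72 with an adjusted p of 0.0153, and DESeq2 gave an adjusted p of 0.0345. Tmem97 followed at 0.53 (adjusted p = 0.0662, edgeR; 0.0398 by DESeq2), and at 0.47 without library 2 (adjusted p = 0.0817, edgeR). For Hmgcs1 the term was 0.79 with a 95% interval of -0.02 to 1.59, and 0.66 without library 2.

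In experiment 1, a smaller number of these genes was lower with PKA KD. Against Control 11 of 29 fell and 1, Tmem97, rose (edgeR), where 32.4% of all 13574 genes were called, 14.8% lower and 17.7% higher. By role, 9 of 19 enzymes fell, 1 of 4 control genes (Insig1) fell, and among transport genes Stard4 fell and Tmem97 rose. The median log2 fold change was -0.09, against 0.01 over all genes. Without library 6 of Control 12 fell and 1 rose, the added gene being Hmgcs1 (-0.51, adjusted p = 0.044, edgeR).

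Lss ranged from 41.4 to 96.2 CPM in Control (median 75.9) and from 21.5 to 59.4 CPM with PKA KD (median 33.2). Of the 10 knockdown libraries 7 lay below the lowest control, and the level was 2.02-fold lower (log2 fold change -1.02 ± 0.18, adjusted p = 1.03e-05, edgeR). Insig1 ranged from 347 to 529 CPM (median 405) in Control and from 127 to 335 CPM (median 215) with PKA KD. It was the only gene of the set whose groups did not overlap here (-0.90 ± 0.14, adjusted p = 1.26e-06, edgeR). The share of all genes tested without overlap was not counted.

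Dhcr7 fell from a median of 129 CPM (70.8 to 145) to 66.3 CPM (43.0 to 99.9), by 0.78 ± 0.13 on the log2 scale. Sc5d fell from 554 CPM (438 to 749) to 379 CPM (234 to 480), with 8 of 10 libraries below the lowest control, and Fdps from 336 CPM (181 to 393) to 204 CPM (107 to 300); both had a log2 fold change of -0.62. Smaller falls were those of Idi1 (-0.57), Pmvk (-0.53), Stard4 (-0.45), Hsd17b7 (-0.43), Acat2 (-0.42) and Ebp (-0.27), with adjusted p from 0.00163 to 0.0218 by edgeR. Tmem97 rose from a median of 87.6 CPM (79.2 to 94.1) to 103 CPM (81.8 to 120), by 0.23 ± 0.08 (adjusted p = 0.0264, edgeR), with 6 of 10 libraries above the highest control.

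Other genes of the set were not called with PKA KD. Hmgcs1 was at a median of 442 CPM (267 to 749) against 630 CPM (297 to 750), a log2 fold change of -0.43 with a 95% interval of -0.83 to -0.03 (adjusted p = 0.0966, edgeR). Sqle was at 88.9 against 70.2 CPM (0.43, interval -0.01 to 0.87) and Mvd at 36.4 against 43.6 CPM (-0.01, interval -0.48 to 0.46). Srebf2 was at a median of 80.1 CPM (28.3 to 88.7) against 69.0 CPM (51.6 to 78.5), with 6 of 10 libraries above the highest control and library 3 far below the rest, at 28.3 CPM (0.11, interval -0.17 to 0.39). Scap (0.02), Insig2 (0.03), Abca1 (0.21), Abcg5 (0.07), Mylip (0.03) and Abcg8 (-0.33, interval -0.62 to -0.03, adjusted p = 0.0862, edgeR) were not called either.

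With PKA KD 32.4% of all genes tested were called, 17.7% higher and 14.8% lower, and the neighbouring lists are to be read beside that share. Of 14 genes of SREBP processing 4 rose (Mbtps2 at 0.40 among them) and 2 fell, Erlin2 at -0.80 and the LXR gene Nr1h3 at -0.28. Of 15 genes of uptake and trafficking 2 rose and 2 fell, with Gramd1b at 0.92 and Nceh1, a cholesteryl ester hydrolase gene, at -0.80. Of 10 genes of bile acid synthesis Cyp7b1 rose (1.33) and Cyp39a1 fell (-1.0). Of 10 isoprenoid genes 3 rose and 2 fell, the latter being Fnta (-0.79) and Rabggtb (-0.22). Of 16 genes of SREBP1 and fatty acid synthesis 11 fell and 0 rose, with a median log2 fold change of -0.99 and Scd1 at -2.28. The summed hepatocyte markers were at 76974 to 106421 CPM (median 90937) against 89025 to 122036 CPM (median 99868) in Control.

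PKA KD and Prkar1a KD share no libraries, and the label of the first names a loss of PKA while the design text calls the second an activation. The 11 genes that fell with PKA KD all fell with Prkar1a KD + Control mAb as well, which is 100% of the first list and 47.8% of the 23 in the second. They were Acat2, Dhcr7, Ebp, Fdps, Hsd17b7, Idi1, Insig1, Lss, Pmvk, Sc5d and Stard4. The second list covers 23 of all 29 genes, so a large overlap is to be read beside that share. A further 12 were called lower with Prkar1a KD and not with PKA KD, among them Hmgcs1, Mvd, Sqle, Nsdhl and Msmo1; whether their changes differ between the experiments was not tested. None of the genes that rose was shared, 1 with PKA KD and 3 with Prkar1a KD, and Tmem97 rose in the first (0.23) and fell in the second (-1.37). Lss had a log2 fold change of -1.02 in the first and -0.90 in the second, and Hmgcs1 of -0.43 and -3.66.

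**Figure D3:**
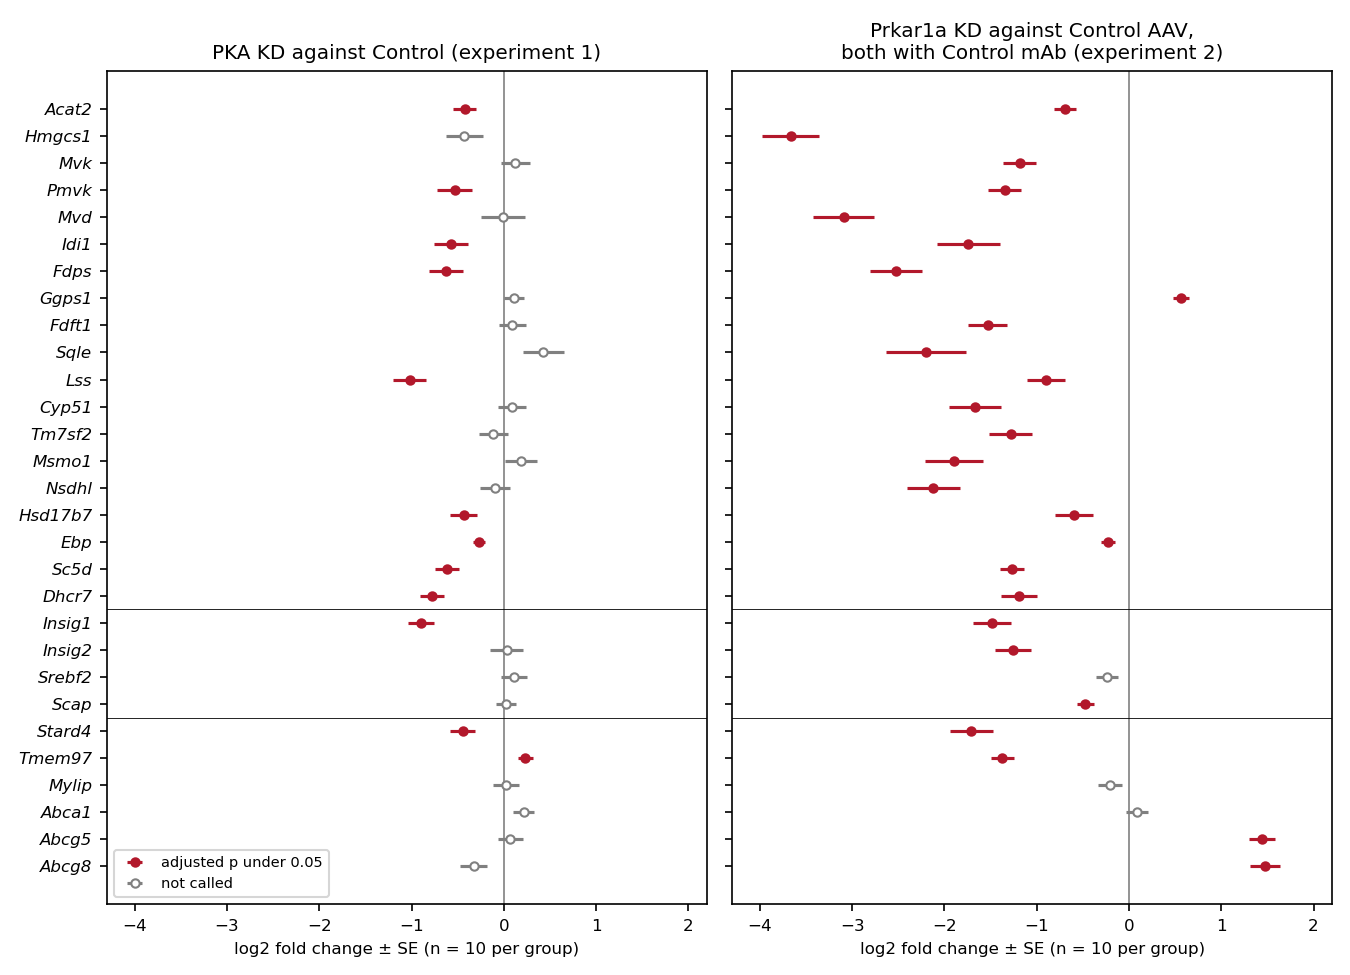
Log2 fold change ± SE of the 29 genes for PKA KD against Control (experiment 1) and for Prkar1a KD + Control mAb against Control AAV + Control mAb (experiment 2); filled red points passed an adjusted p of 0.05 and open grey points did not. Hmgcs1 and Mvd are furthest to the left with Prkar1a KD (-3.66 and -3.09) and Lss and Insig1 with PKA KD (-1.02 and -0.90).

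Knockdown of the receptor gene gave few called genes. With Gcgr KD 4 of 29 fell and 0 rose (edgeR, where 7.23% of all genes were called, 2.9% higher and 4.33% lower). The log2 fold change was negative for 25 of 29, while it was positive for 53.2% of all genes tested. Its median was -0.22 against 0.01 over all genes. Ebp fell from a median of 210 CPM (177 to 245) to 159 CPM (147 to 194), by 0.34 ± 0.07 (adjusted p = 0.000755, edgeR), and 8 of 10 libraries lay below the lowest control. Abca1 fell from 152 CPM (116 to 212) to 112 CPM (81.5 to 157), by 0.37 ± 0.11. Tm7sf2 (-0.49, adjusted p = 0.047) and Tmem97 (-0.27, adjusted p = 0.0381) were the other 2 by edgeR, and with no filter on low counts Ebp alone was called. Srebf2 (-0.12), Scap (-0.18), Insig1 (-0.26, interval -0.54 to 0.03), Insig2 (0.10), Mylip (0.18), Abcg5 (-0.07) and Abcg8 (-0.13) were not called. The summed hepatocyte markers were at 75956 to 102625 CPM (median 83057) against 89025 to 122036 CPM (median 99868) in Control, and 1 of 7, the albumin gene Alb, fell (-0.35, adjusted p = 0.0438, edgeR). The summed stellate cell markers were at 287 to 618 CPM (median 444) against 249 to 486 CPM (median 342), with 0 of 7 called (4 at an unadjusted p under 0.05). The part of these markers was not tested.

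With Gnas KD 5 of 29 fell and 0 rose (edgeR, where 15.2% of all genes were called, 6.83% higher and 8.32% lower). The log2 fold change was negative for 24, while it was positive for 53.0% of all genes tested. Its median over the 29 was -0.26. Pmvk, the phosphomevalonate kinase gene, fell from a median of 60 CPM (34.7 to 71.9) to 38.9 CPM (20 to 45.7), by 0.70 ± 0.19 (adjusted p = 0.00651, edgeR). The groups overlapped, with 4 of 10 libraries below the lowest control. Insig1 fell from 405 CPM to 288 CPM (191 to 404), by 0.48 ± 0.14, and 8 of 10 libraries lay below the lowest control. Hsd17b7 (-0.51), Acat2 (-0.49) and Ebp (-0.30) completed the list. Without library 6 of Control 8 genes were called lower, the added ones being Fdps (-0.53), Mvd (-0.67) and Tm7sf2 (-0.47). Srebf2 (0.01), Scap (-0.11), Insig2 (-0.09), Mylip (0.05), Abca1 (0.19), Abcg5 (-0.19) and Abcg8 (-0.29) were not called. Beside these, 4 of 7 stellate cell markers rose with Gnas KD, with a summed level of 306 to 752 CPM (median 550) against 249 to 486 CPM (median 342), and their part was not tested.

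With Epac2 KD edgeR called 0 of 29 genes (of all genes 4.56% were called, 1.82% higher and 2.74% lower), DESeq2 also called 0, and 4 had an unadjusted p under 0.05 by either tool. These were Cyp51 (-0.31), Sc5d (-0.28), Insig1 (0.30) and Scap (0.23). Insig1 had a median of 534 CPM (353 to 643), with 5 of 10 libraries above the highest control of 529 CPM, and its 95% interval was 0.02 to 0.59 (adjusted p = 0.249, edgeR). Hmgcs1 (-0.14, interval -0.54 to 0.26), Srebf2 (-0.03, interval -0.31 to 0.24), Insig2 (-0.13), Mylip (-0.08), Abca1 (0.03), Abcg5 (0.19) and Abcg8 (0.02) were not called.

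Set directly against the other knockdowns, PKA KD had lower Lss, Dhcr7 and Insig1 in each of the 3 comparisons. All 3 use the same PKA KD libraries, so they are not independent. Against Gcgr KD 3 genes were lower (Lss at -0.90, Dhcr7 at -0.68 and Insig1 at -0.64) and 2 higher (Abca1 at 0.58 and Tmem97 at 0.50), where 31.7% of all genes were called by edgeR, 17.3% higher and 14.4% lower. Without library 3 of PKA KD 8 were called, with Srebf2 (0.33), Msmo1 (0.47) and Tm7sf2 (0.44) higher as well. Against Gnas KD the same 3 were lower (Lss at -0.80, Dhcr7 at -0.58 and Insig1 at -0.42), and Fdft1 (0.42) and Tmem97 (0.30) were higher, with 34% of all genes called, 18.4% higher and 15.6% lower. Against Epac2 KD 10 were lower and 1 higher (35.7% of all genes called, 18.4% higher and 17.3% lower): Insig1 (-1.20) and Dhcr7 (-0.98) did not overlap, Lss was at -1.13 and Fdps at -0.82, and Cyp51 was higher at 0.39. Between Gnas KD and Gcgr KD 1 gene was called (5.84% of all genes, 2.37% higher and 3.47% lower), Abca1, which was higher with Gnas KD at a median of 169 CPM (142 to 220) against 112 CPM (0.56, adjusted p = 0.000631, edgeR).

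Within control liver most enzyme genes varied with Hmgcs1 from sample to sample. How many genes outside the set do so in the same libraries was not counted. The counts for both experiments therefore have no background share, and whether this is a trait of the set was not tested. In Control of experiment 1 the level of Hmgcs1 on the log2 CPM scale was correlated with 19 of the other 28 genes, 16 of 18 enzymes among them, at an adjusted permutation p under 0.05 (100000 permutations, 2-sided, 56 correlations in all, n = 10). All 19 coefficients were positive, and the median Pearson r of the 18 enzymes was 0.93. It was 0.71 without libraries 4 and 6, the farthest from the median of Hmgcs1. Idi1 had r = 0.98 and Spearman's rho = 0.94 (adjusted permutation p = 0.00056), with r = 0.92 without those libraries. Sqle had r = 0.97 and rho = 0.95, with r = 0.86 without them, at an adjusted permutation p of 0.00028, which Lss shared; for both, the p before adjustment was the smallest that these permutations can give. Other relations rest on libraries 4 and 6: Mvk went from r = 0.80 to 0.20 without them and Tm7sf2 from 0.80 to 0.19, and neither passed by Spearman's rho (0.64 and 0.43). Ebp (r = 0.40) and Ggps1 (r = 0.01) were the enzymes that did not pass. Among control genes, Srebf2 had r = 0.71, which was -0.04 without libraries 4 and 6, so that relation rests on them; Scap went from 0.84 to 0.35; Insig2 had r = -0.65 (adjusted permutation p = 0.0741), and -0.18 without them.

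In Control AAV + Control mAb of experiment 2, 11 of 28 genes passed the same permutation test, all of them enzymes and all positive (n = 10). The median r of the 18 enzymes was 0.72, and 0.69 without libraries 9 and 10, with a range of 0.32 to 0.85. Dhcr7 and Cyp51 (both r = 0.85) and Sqle (r = 0.83, and 0.91 without libraries 9 and 10) were highest. For Acat2 (r = 0.70) and Sc5d (r = 0.70) the value without those libraries was 0.25 and 0.11. By Spearman's rho 16 and 8 genes passed the permutation test in the experiments in turn. All these genes come from the same libraries and share their scaling.

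**Figure D4:**
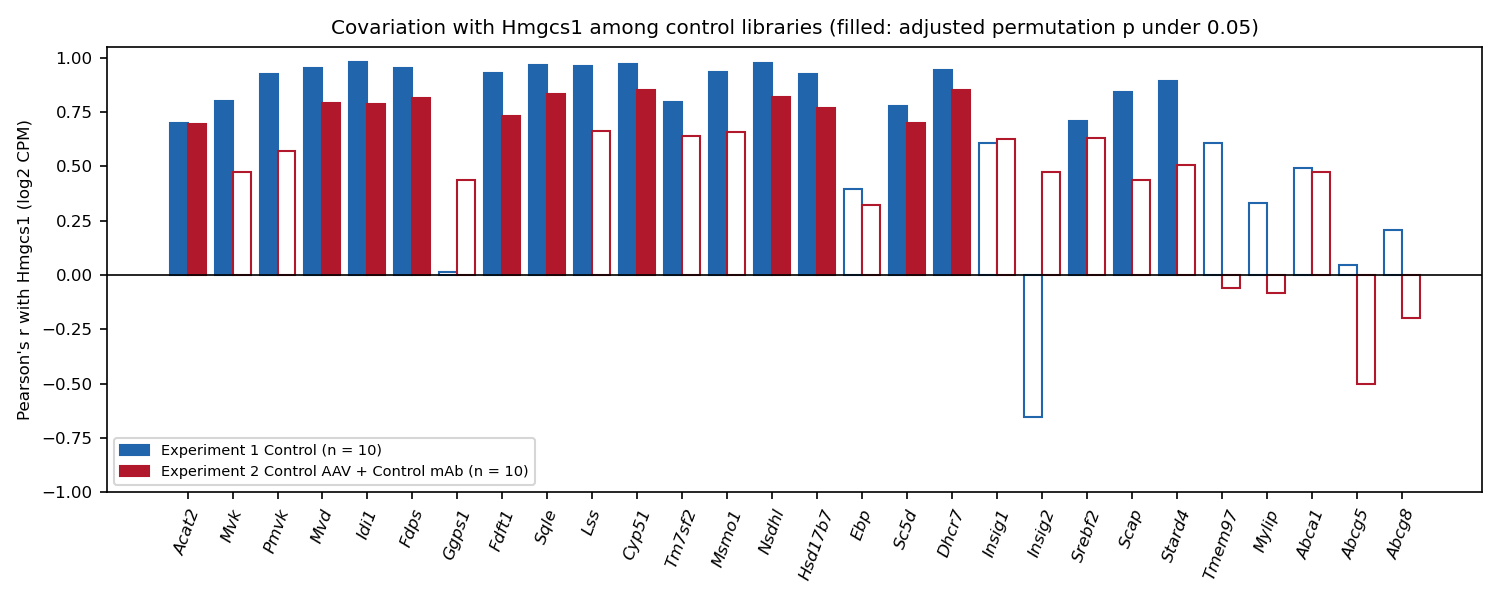
Bars give Pearson r of log2 CPM with that of Hmgcs1 across the 10 libraries of Control (experiment 1) and, separately, of Control AAV + Control mAb (experiment 2). Filled bars had an adjusted permutation p under 0.05. Most enzymes lie at high positive r in both groups (medians 0.93 and 0.72), and Insig2 lies at -0.65 in the first group.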

How the data were processed

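Before deposit the authors made 1 table of expected counts per experiment, with 1 value per Entrez gene and library, per the file headers. Per the labels' protocols, bead-purified, DNase-treated total RNA gave mRNA for strand-specific, PCR-amplified libraries. The submitters' processing notes name bcl2fastq 2.17, FastQC and the builds GRCm38 and mm10; they name no aligner or counter. Of the entries 8.562% (experiment 1) and 8.428% (experiment 2) were not whole numbers, so the expected counts were rounded.

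Symbols were matched to 24375 of 24475 Entrez identifiers. Each experiment was fitted whole, without covariates, with edgeR 4.0.16 in R 4.3.3: TMM scaling, filterByExpr, a robust quasi-likelihood fit and Benjamini-Hochberg adjustment over 13574 and 12847 genes, called at an adjusted p under 0.05. SE is the log2 fold change divided by the root of F, and intervals are at 95%. Log2 CPM used a prior count of 2. DESeq2 1.42.0, RLE scaling, no filter, only the groups compared and the replicate number as a block were alternatives, and leaving out 4 libraries was added after seeing the data. The edgeR step was tested on simulated data before use. Correlations and their permutation test used numpy 2.4.6, with ranks and the t quantile of the intervals from scipy 1.17.1. The members, gene lists and markers were chosen with earlier results of these data known. Every member could be named, with full values for at most the 4 largest changes per direction and comparison and always for SREBP2 control and export genes, and of other lists at most 3 called genes per direction. No 2 libraries of a group agreed within sampling noise (lowest chi-square per degree of freedom 7.94). Of 8 hepatocyte markers 1 had no match; no adipocyte marker passed the filter, the lymphocyte markers are not reported here, and cholangiocyte markers are reported in the closing section with the other lists. Genome positions and motifs came from RefSeq tables of GRCm38.p6.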

Additional observations from a re-analysis of the deposited data

Results flagged for a closer look

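In 39 of 261 gene and group pairs, 1 library lay far from the other 9 on the log2 CPM scale. Its gap to the nearest of them was over 0.466 of the whole range of the group on that scale. Chance gives this in about 1 in 20 groups. The pairs are not independent, since genes of a library move together, and what sets these libraries apart was not tested.

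Library 2 of Control AAV + Gcgr mAb was lowest in 19 pairs. Among mevalonate and isoprenoid enzymes these were Acat2 (50.7 CPM), Hmgcs1 (121 CPM, the others from 432 to 1178), Mvk (6.59 CPM), Pmvk (12 CPM), Mvd (3.54 CPM), Idi1 (41.9 CPM) and Fdps (37.4 CPM). Among later enzymes they were Fdft1 (55.1 CPM), Sqle (9.25 CPM), Cyp51 (44.9 CPM), Tm7sf2 (12.5 CPM), Msmo1 (30.02 CPM), Nsdhl (15.5 CPM), Hsd17b7 (20.1 CPM), Sc5d (298 CPM) and Dhcr7 (29.5 CPM). Insig1 (143 CPM), Abcg5 (43.4 CPM) and Abcg8 (34.7 CPM) were also lowest there. Summed Kupffer cell markers were highest in this library, at 415 CPM (the others up to 210). So were stellate cell markers, at 883 CPM (up to 531), and cholangiocyte markers, at 22.6 CPM (up to 16.5). Hepatocyte markers (87387 CPM, the others up to 83884) and endothelial markers (181 CPM, up to 179) were highest there too. Acinar markers were lowest (5.37 CPM, the others from 6.03). The part of these markers was not tested.

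Library 6 of Control in experiment 1 was lowest for Hmgcs1 (297 CPM, the others from 459 to 750), Mvd (19.7 CPM), Idi1 (50.4 CPM), Sqle (13.0 CPM), Cyp51 (67.8 CPM), Tm7sf2 (44.7 CPM), Hsd17b7 (44.5 CPM) and Dhcr7 (70.8 CPM). Library 10 of Control AAV + Control mAb was lowest for Hsd17b7 (30.8 CPM), Sc5d (412 CPM), Srebf2 (20.1 CPM) and Stard4 (15.5 CPM), and library 9 of that group for Insig2 (121 CPM).

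The export pair Abcg5 and Abcg8 was highest in library 10 of Epac2 KD (104 and 148 CPM) and lowest in library 6 of Gcgr KD (34.5 and 54.9 CPM). Srebf2 was lowest in library 3 of PKA KD (28.3 CPM, the others from 68.9 to 88.7). Mvd was highest in library 1 of Prkar1a KD + Control mAb (5.65 CPM), and Ebp lowest in library 7 of Prkar1a KD + Gcgr mAb (127 CPM).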

How the results depend on the processing

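Of 120 calls of a gene in a comparison, 109 held under every alternative run, 11 were lost under at least 1, and 0 changed sign; DESeq2, RLE scaling and the replicate block kept all 120, no filter on low counts lost 8, and fitting only the groups compared lost 3. The count of called genes moved by over 1.5 times in these cases. With Gcgr KD it was 1 without the filter (4 otherwise), since Tm7sf2, Tmem97 and Abca1 were lost at adjusted p from 0.0532 to 0.0725. With Gnas KD it was 8 with only the groups compared and 8 without Control library 6 (5 otherwise). For PKA KD against Gcgr KD it was 8 without PKA KD library 3 (5 otherwise). For the Gcgr mAb alone it was 2 by DESeq2, 0 with only the groups compared (7 at an unadjusted p under 0.05), and from 1 to 3 with a library left out (1 otherwise). For the interaction it was 2 by DESeq2 and from 0 to 1 with a library left out (0 otherwise); a fit of only the groups compared could not be made, since the term needs all 4. The sterol element was matched in 11 promoters with 1 mismatch and 1 without. The causes were not tested. With the replicate number as a block, the interaction called 1 gene, Abcg5 (adjusted p = 0.0478), and Srebf2 was called with Prkar1a KD (-0.24, adjusted p = 0.0403). Whether replicate numbers pair the samples was not settled. Between 1 and 7 of 10 same-numbered pairs per comparison had correlated deviations above 0.1. Their median r ran from -0.08 (Gnas KD against Control) to 0.21 (PKA KD against Gnas KD). Pairs with different numbers were not set beside them, so these values cannot decide the question. Depth was high enough to test all 29 genes; the lowest, Mvd with Prkar1a KD, had a median of 1.99 CPM.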

Other observations

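Several other cell type markers were measured beside the sterol genes. The summed level of 5 cholangiocyte markers had a median of 16.0 CPM with PKA KD (11.3 to 43.0) against 10.9 CPM in Control (9.33 to 21.7), and Sox9 rose with PKA KD, Gnas KD and Epac2 KD. The summed level of 6 endothelial markers had a median of 100.4 CPM (51.9 to 133) with Prkar1a KD + Control mAb against 113 CPM (69.1 to 160) in its control. The 4 adipocyte markers summed to at most 9.52 CPM in any library. The pancreatic acinar marker Cela1, the only 1 of 5 tested, fell with Prkar1a KD and rose with the Gcgr mAb alone. In that antibody group 1 library reached a summed acinar level of 743 CPM, against a group median of 12.5 CPM and a control median of 11.9 CPM. Cela1 was also called without library 2. The library at 743 CPM is not library 2, so that call still includes it, and the rise was not tested without it. The part of these markers in the results was not tested.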
